A study of Mus musculus with 16 samples.

Results

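The Nduf genes encode the nuclear subunits of mitochondrial complex I and a set of proteins that help to build it. They were taken as every symbol of the FPKM table that starts with Nduf and has no hyphen, which gave 45 genes among 46206 distinct symbols. Each symbol had a single entry, and no entry was at 0 in any library. By their known roles 7 are core subunits, 29 are accessory subunits, 7 are Ndufaf assembly factors and 2, Ndufa4 and Ndufa4l2, are no longer counted as complex I subunits. The members were chosen by name, with earlier results of these data known, and all 45 passed the filter on low values.

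Complex I (NADH:ubiquinone oxidoreductase) is the entry point of the respiratory chain: it passes electrons from NADH to ubiquinone and pumps protons across the inner mitochondrial membrane. Its core subunits carry out catalysis and are conserved from bacteria, while the accessory subunits surround and stabilise them, and the assembly factors leave once the enzyme is complete. The N module binds NADH, the Q module binds ubiquinone and the membrane arm, built partly from mitochondrially encoded subunits, pumps protons. Brown fat is rich in mitochondria and burns fuel through this chain when uncoupling protein Ucp1 dissipates the proton gradient as heat.

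RNA was sequenced from 4 fat depots of the mouse, with 4 libraries each and 16 in all. The depots were the epididymal (eWAT) and the inguinal (iWAT) white fat pads, the adipose tissue of the thigh (tAT) and brown fat (BAT). All were male C57BL66/J mice made obese with a high fat diet, and no other treatment or genotype separated the groups. The series asked whether a fat depot of the mouse thigh is a natural beige depot, that is, a white depot with brown-like cells. Whether each library came from its own mouse is not stated in the labels, so p-values reflect the spread among libraries alone, and that spread may be technical.

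Several libraries stood apart and touch the results below. The summed FPKM of 18 skeletal muscle genes was 15256 to 24200 in tAT 1, 2 and 4 but 292 in tAT 3; it was 3055 and 2473 in BAT 3 and 4, 127 to 147 in the other BAT libraries, 114 to 705 in iWAT and 60.1 to 82.2 in eWAT. The summed FPKM of 10 brown adipocyte genes was 13694 to 17816 in BAT, 1157 to 3117 in tAT with its highest value in tAT 3, 149 to 231 in iWAT and 55.5 to 92.2 in eWAT, and Zic1, one of the 10, was at 0 in every tAT library. Adipocyte genes, 10 listed, summed to 31918 to 34805 FPKM in eWAT, 34279 to 39248 in iWAT and 12086 to 14215 in BAT; in the thigh the sum was 34347 in tAT 3 and 21257 to 25628 in the rest. The summed FPKM of 10 macrophage genes was 508 to 1263 in eWAT, 212 to 416 in iWAT, 74.0 to 130 in tAT and 9.84 to 15.4 in BAT. A list of 10 lymphocyte genes summed to 246 FPKM in iWAT 3 but to 13.5 to 22.4 in the other inguinal libraries, and iWAT 3 also had the highest inguinal sum of the complex I subunits, 7340 FPKM. The part of these other cells in the results was not tested. In tissue RNA, fewer cells of a type and less RNA per cell cannot be told apart.

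The promoters of these genes are shown for members that bear on the comparisons below: Ndufaf4, the assembly factor with the largest brown fat difference, Ndufv2, a core subunit, Ndufv3, an accessory subunit with one of the smallest differences, Ndufaf1, and Ndufa11, the subunit with the lowest level. Of the 45 members, 39 were matched to 41 promoters of RefSeq (GRCm38.p6), each running from 250 bases before to 50 after a start site. The 120 bases before the start are printed 5′ to 3′ on the gene's strand, with capitals for a motif found on either strand.
Ndufaf4 (chr4:24897963-24898082, plus strand): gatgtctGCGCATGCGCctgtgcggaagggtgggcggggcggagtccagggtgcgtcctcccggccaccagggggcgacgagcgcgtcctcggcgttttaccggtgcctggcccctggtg
Ndufa11 (chr17:56717642-56717761, plus strand): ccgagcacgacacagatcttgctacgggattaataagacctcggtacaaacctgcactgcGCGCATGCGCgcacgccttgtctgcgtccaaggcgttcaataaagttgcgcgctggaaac
Ndufaf1 (chr2:119662835-119662954, minus strand): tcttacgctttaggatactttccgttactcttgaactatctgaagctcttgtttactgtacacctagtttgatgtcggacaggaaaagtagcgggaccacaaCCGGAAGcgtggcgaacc
Ndufv2 (chr17:66101560-66101679, minus strand): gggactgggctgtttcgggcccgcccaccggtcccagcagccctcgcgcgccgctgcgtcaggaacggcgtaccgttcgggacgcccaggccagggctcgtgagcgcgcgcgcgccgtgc
Ndufv3 (chr17:31519995-31520114, plus strand): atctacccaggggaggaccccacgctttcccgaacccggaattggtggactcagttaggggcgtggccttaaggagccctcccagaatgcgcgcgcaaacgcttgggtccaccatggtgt

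The 4 motifs searched belong to factors known to act on genes of mitochondrial respiration, and both strands of the whole 300 bases were read. The NRF1 motif GCGCATGC, which overlaps its own reverse complement in Ndufaf4 and Ndufa11, was in 5 of the 41 member promoters (12.2%), against 2.71% of 32851 promoters and 5.01% of the promoters of tested protein-coding genes. The ETS motif CCGGAAG, seen in Ndufaf1, was in 5 (12.2%), against 8.86% of all promoters and 16.7% of those of tested genes. The YY1 motif AAGATGG was in 7 (17.1%), against 6.34% and 6.94%. All 7 YY1 matches lay 23 to 39 bases after the start on the gene's own strand, so within the transcribed part. Where YY1 matches lie in other promoters was not counted. The motif of the oestrogen-related receptors, AAGGTCA, was in 3 (7.32%), against 4.72% and 3.37%. Both Ndufv2, with a large difference, and Ndufv3, with a small one, held none of the 4 motifs, as did 19 members in all. A match is a description of letters and not of a bound site.

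Brown fat held far more complex I subunit RNA than the other depots. The 36 subunits took 2.52 to 2.84% of the summed FPKM of the BAT libraries, against 0.737 to 1.03% in tAT, 0.702 to 0.779% in iWAT and 0.732 to 0.802% in eWAT. For 36 of 36 subunits every BAT library lay above every library of the other 3 depots. FPKM is scaled to gene length and library total, so levels can be set side by side between genes, but only roughly. Overlapping exons, near-identical copies and failed estimates, given below, can shift the level of a gene. The summed FPKM of all genes still ranged from 818815 in BAT 4 to 1074120 in tAT 3.

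Ndufv1, the core subunit that binds NADH and flavin (chr19:4007384-4012806, minus strand, GRCm38), had 128, 115, 111 and 104 FPKM in eWAT 1 to 4 and 114, 121, 128 and 121 in iWAT 1 to 4. Its values were 153, 153, 255 and 180 FPKM in tAT and 759, 715, 596 and 691 in BAT. No depot overlapped BAT, tAT lay above both white depots, and tAT 3 was its highest thigh library. Mean FPKM in BAT was 6.02 times that in eWAT, the largest ratio among the 45 members. The fitted difference on the log2(FPKM + 1) scale was 2.58 ± 0.14 (SE; limma adjusted p 1.2e-10), which is at the 98.9th percentile of 14991 tested genes.

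Ndufs1, the largest core subunit, which carries iron-sulfur clusters of the N module (chr1:63143596-63176833, minus strand), had 44.3, 52.6, 61.6 and 52.5 FPKM in eWAT and 65.5, 63.0, 75.9 and 69.1 in iWAT. It had 112, 106, 146 and 127 FPKM in tAT and 282, 308, 315 and 349 in BAT. The 4 depots did not overlap for Ndufs1, and they stood in the order eWAT, iWAT, tAT and BAT. The BAT mean was 5.94 times the eWAT mean (difference 2.55 ± 0.12, adjusted p 1.8e-11, limma) and 2.55 times the tAT mean (1.35 ± 0.12, adjusted p 7.7e-08).

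Ndufs7, an iron-sulfur subunit of the Q module, was at 131 ± 10.6 FPKM (SD, n = 4) in eWAT, 132 ± 11.4 in iWAT, 194 ± 37.6 in tAT and 494 ± 50.2 in BAT. It was highest in BAT, with tAT between, and the white depots were within their spread of each other. The iron-sulfur subunit Ndufs8 was at 69.5 ± 5.98, 69.1 ± 4.78, 82.6 ± 23.5 and 305 ± 23.4 FPKM in the same order, so its lower 3 depots overlapped. Ndufs3, a Q module subunit, was at 153 ± 4.31, 162 ± 9.61, 199 ± 43.4 and 500 ± 22.2 FPKM, and Ndufv2, an iron-sulfur partner of Ndufv1, at 116 ± 6.33, 127 ± 20.3, 169 ± 35.1 and 542 ± 35.1. All 7 core subunits were higher in BAT in each of the 3 comparisons, with median differences of 2.21 against eWAT, 2.13 against iWAT and 1.69 against tAT.

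**Figure D1:**
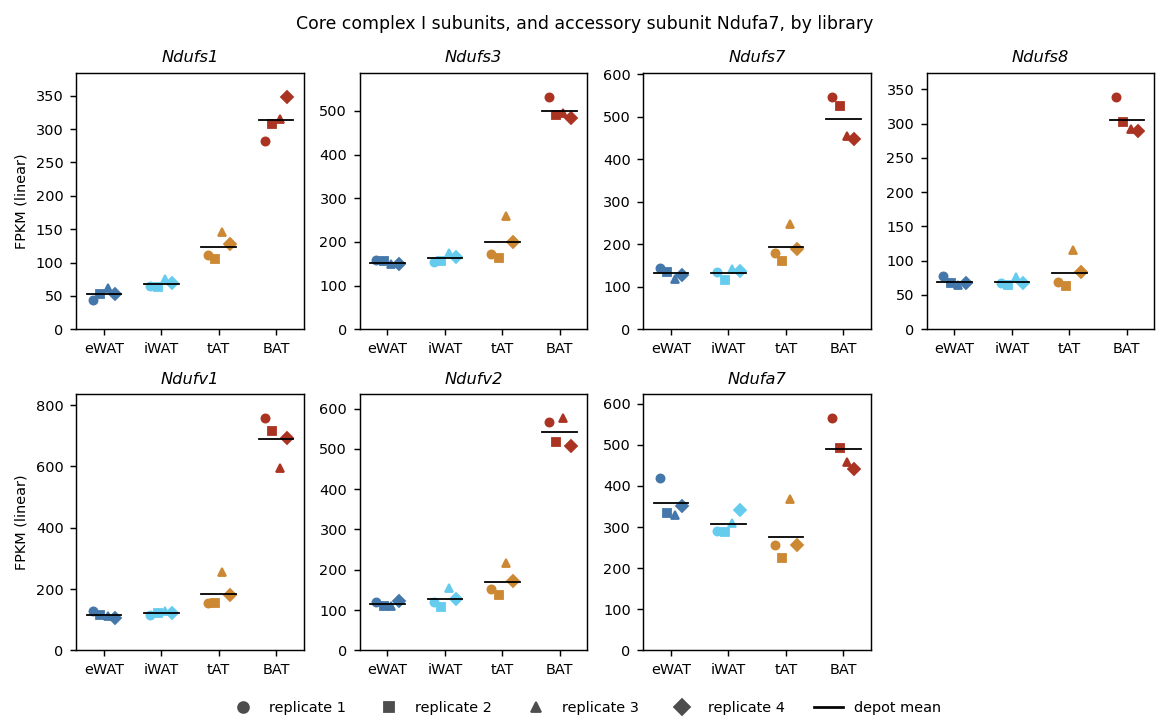
FPKM on linear axes that start at 0, for 6 core subunits and the accessory subunit Ndufa7 in the 16 libraries; each symbol is a library and each bar a depot mean (n = 4). BAT libraries lie above all others in every panel, Ndufs1 climbs through all 4 depots, and tAT 3 is the highest thigh library in each panel.

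The 29 accessory subunits were all higher in BAT too, but over a wide range of sizes. The BAT mean was 1.36 to 5.23 times the eWAT mean, 1.59 to 5.60 times the iWAT mean and 1.77 to 3.54 times the tAT mean. Ndufa10, which has the fold of a nucleoside kinase and sits on the proximal membrane arm (chr1:92439010-92473860, minus strand), had 305, 332, 270 and 310 FPKM in eWAT and 244, 328, 262 and 302 in iWAT. It had 328, 373, 650 and 448 FPKM in tAT and 1684, 1677, 1402 and 1597 in BAT. Ndufa10 was the most abundant nuclear subunit of brown fat, while Ndufa3 led in both white depots and Ndufc1 in tAT. Its difference was 2.38 ± 0.17 against eWAT (adjusted p 3.0e-09, limma), 2.49 ± 0.17 against iWAT and 1.86 ± 0.17 against tAT.

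At the other end, Ndufa7, a small N module accessory subunit (chr17:33824572-33838317), had 419, 334, 329 and 352 FPKM in eWAT and 290, 289, 309 and 342 in iWAT. Its values in tAT were 255, 226, 369 and 257 FPKM, and those in BAT 566, 491, 457 and 442. BAT stayed above all others, yet the lowest BAT value and the highest eWAT value were close, and 3 of 4 thigh libraries lay below every white library. The BAT mean was 1.36 times that of eWAT (difference 0.45 ± 0.14, adjusted p 0.0079, limma). Ndufa2, with a thioredoxin-like fold, had means of 325 ± 31.2 FPKM in eWAT and 503 ± 52.6 in BAT, 1.55 times as high. Ndufv3, an N module subunit, had 378 ± 38.0 and 585 ± 59.0 FPKM, also 1.55 times. Ndufb3, of the distal membrane arm, had 195 ± 25.1 and 336 ± 24.2 FPKM, 1.73 times.

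Between these extremes were the subunits often used as markers of the complex. Ndufb8, of the distal arm, was at 353 ± 13.6 FPKM in eWAT and 1345 ± 123 in BAT, 3.82 times. Ndufa9, which belongs to the short-chain dehydrogenase family and sits near the Q module, was at 96.0 ± 3.14 and 382 ± 15.9 FPKM, 3.98 times. Ndufs4, whose loss in mice causes a Leigh-like disease, was at 46.7 ± 4.43 and 136 ± 10.7 FPKM, 2.92 times, and Ndufs6, a zinc-binding subunit, at 124 ± 12.4 and 418 ± 52.7, 3.38 times. Ndufab1, the mitochondrial acyl carrier protein and the single member found in both the matrix and the membrane arm, was at 422 ± 49.6 and 1232 ± 41.6 FPKM, 2.92 times. Ndufb5, of the distal arm, was at 157 ± 17.1 and 708 ± 44.1, 4.51 times, and Ndufa1 at 241 ± 31.7 and 860 ± 112, 3.56 times.

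Counted by limma at an adjusted p under 0.05, 43 of 45 members were higher in BAT than in eWAT and 1 was lower, where 15.2% of all tested genes were higher and 59% lower. Against iWAT 43 were higher and 1 lower (12.7% and 61.5% of all genes), and against tAT 44 were higher and 1 lower (11.2% and 58.6%). The non-overlap of BAT above the other depots for 36 of 36 subunits stands beside 13.6% of all genes above and 56% below eWAT, 12.2% above and 59.5% below iWAT, and 9.25% above and 51.9% below tAT. The median difference of the subunits was 1.66, 1.70 and 1.43, while the median of all genes was -0.52, -0.54 and -0.44. The 3 comparisons share the BAT libraries. When each library was scaled by the median of ratios, which moved the median of all genes to 0.01, 0.00 and -0.02, 44 members were higher in each and none was lower. Of all genes, 34.6% were then higher and 34.9% lower in BAT than in eWAT, 31.3% and 32.8% than in iWAT and 26.3% and 27.8% than in tAT. Without the 5 libraries in which the muscle genes summed to over 1000 FPKM (tAT 1, 2 and 4, BAT 3 and 4), 44 members were higher in BAT than in eWAT, 44 than in iWAT and 40 than in tAT. Of all genes, 14.9% were then higher and 54.6% lower than in eWAT, 13% and 56.3% than in iWAT and 7.47% and 32% than in tAT. That count of 40 sets 2 BAT libraries against tAT 3 alone, which is assumed to vary like the other groups.

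**Figure D2:**
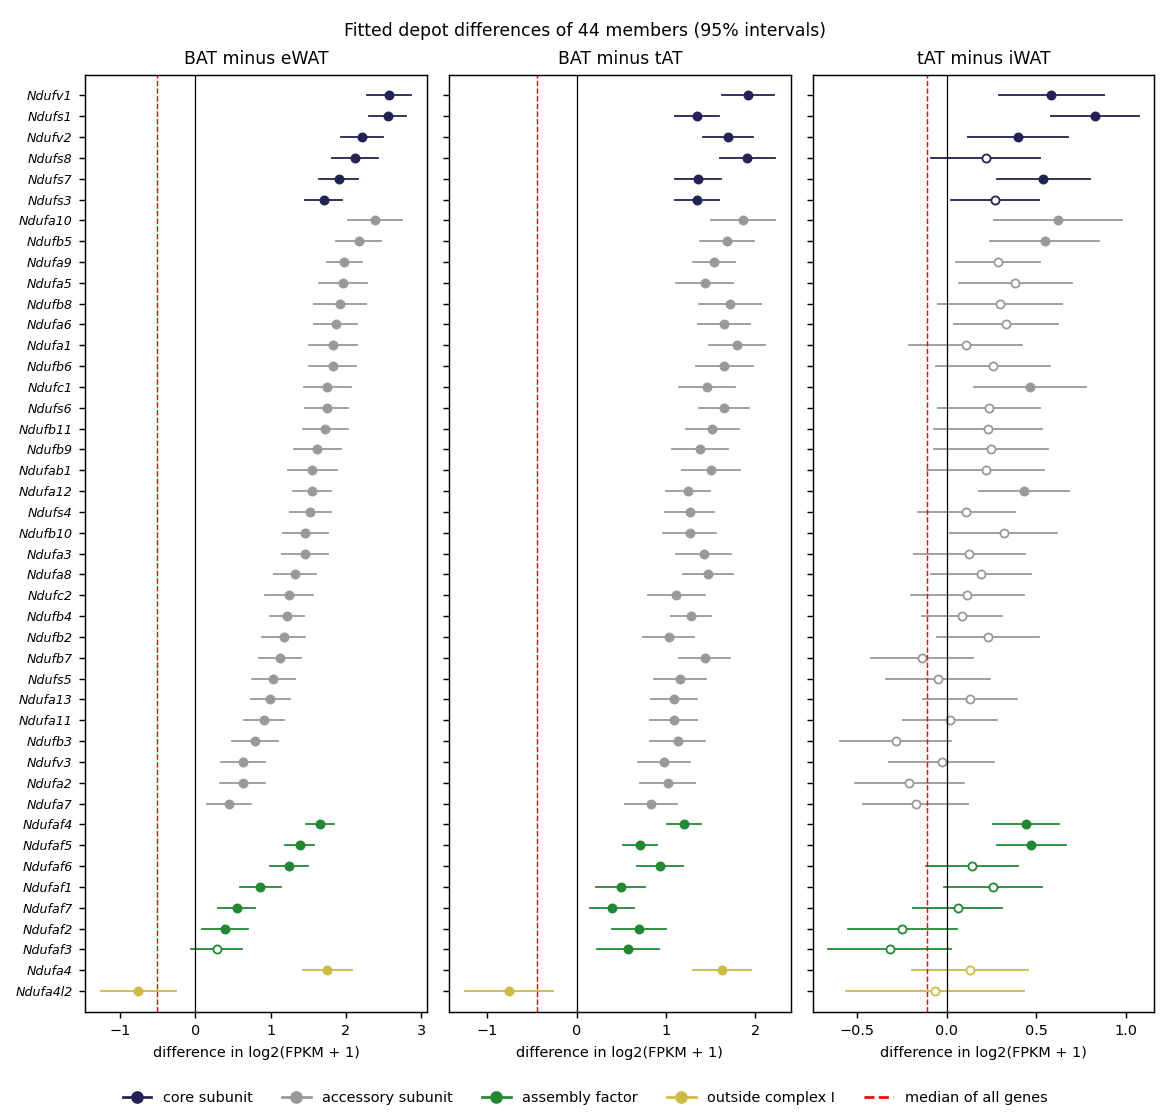
Fitted difference between depots in log2(FPKM + 1) for 44 members, with the 95% interval, ordered by class and by the BAT against eWAT difference; filled points passed an adjusted p under 0.05 (limma) and open points did not. In the first 2 panels nearly every point lies right of 0, core subunits reach furthest and Ndufa4l2 alone passed on the left, while in the tAT against iWAT panel 10 points are filled, led by Ndufs1.

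In class median the core subunits differed more between brown fat and the other depots than the accessory subunits did. Among the 10 largest BAT against eWAT differences of the 36 subunits 5 were of core subunits, and none of the 10 smallest was. Against iWAT the counts were also 5 and none. Against tAT they were 4 and none, and the lowest core subunit there ranked 23rd of 36. The median difference was 2.21 for the 7 core and 1.53 for the 29 accessory subunits against eWAT, 2.13 and 1.63 against iWAT, and 1.69 and 1.43 against tAT. This can be seen within a library, where no scaling between libraries enters. The mean log2(FPKM + 1) of the core subunits minus that of the accessory subunits was -0.87, -0.74, -0.62 and -0.76 in eWAT 1 to 4 and -0.49, -0.58, -0.50 and -0.54 in iWAT 1 to 4. In tAT 1 to 4 it was -0.20, -0.24, -0.28 and -0.18, and in BAT 1 to 4 it was -0.05, 0.04, 0.01 and 0.12. The 4 depots did not overlap, and they stood in the order eWAT, iWAT, tAT, BAT, with tAT 3 beside the muscle-rich thigh libraries on this measure. No p is given, since the contrast between the classes was drawn with results of these data known.

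A pair of single genes from the ends of the range shows the same shift, chosen after their values were seen. The ratio of Ndufv1 to Ndufa7 FPKM was 0.296 to 0.345 in the eWAT libraries, 0.353 to 0.418 in iWAT, 0.598 to 0.701 in tAT and 1.30 to 1.56 in BAT. Ndufa7 was thus the more abundant of the pair in the 12 libraries outside brown fat and Ndufv1 in the 4 brown fat libraries. Core subunits have longer annotated exons than accessory ones, with a median of 2178 against 1251 bases. Over the 36 subunits the rank correlation of exonic length with the BAT against eWAT difference was 0.31, and over 14916 genes it was 0.04; for tAT against iWAT the values were 0.39 and 0.17. The genes share libraries and these are descriptions; the part of length in the class difference was not tested.

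**Figure D3:**
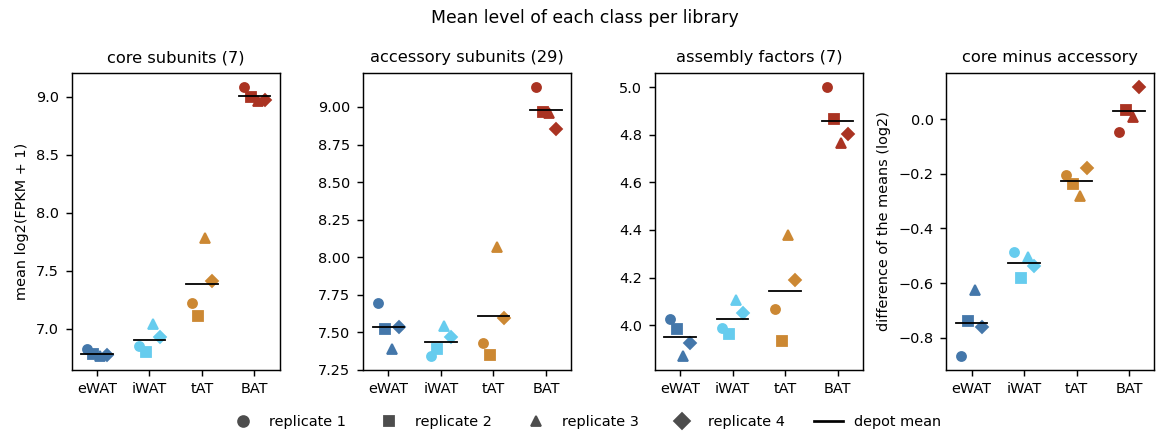
Mean log2(FPKM + 1) per library of the 7 core subunits, the 29 accessory subunits and the 7 assembly factors, and the core minus accessory difference; symbols are libraries, bars are depot means (n = 4), and the axes do not start at 0. The core minus accessory values climb from -0.75 in eWAT through -0.53 in iWAT and -0.23 in tAT to 0.03 in BAT without overlap, while tAT 3 stands apart in the class means and not in their difference.

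By module, the Q module, with 4 core subunits among its 6 members, had the largest median BAT against eWAT difference at 1.97. The N module (10 members) followed at 1.65, with both Ndufv1 at the top and Ndufa7 at the bottom of its range of 0.45 to 2.58. The distal membrane arm (10 members) was at 1.54 and the proximal membrane arm (9 members) at 1.32. The order was the same against iWAT. Against tAT the N module was lowest at 1.31, with the distal arm at 1.41, the proximal arm at 1.43 and the Q module at 1.49.

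By class median the assembly factors were 10 times and more below the subunits in level, and brown fat exceeded the other depots by less. Single members overlapped, as Ndufa11 was at 24.7 FPKM in eWAT, below Ndufaf3 at 37.0. The median subunit mean was 13.7 times the median assembly factor mean in eWAT, 13.3 in iWAT, 11.6 in tAT and 16.1 in BAT. Their BAT against eWAT median difference was 0.86, beside 1.66 for the subunits, with 6 of 7 higher. The mean log2 level of the subunits minus that of the assembly factors was 4.07 to 4.19 in BAT and 3.25 to 3.63 in the other 12 libraries, so brown fat did not overlap the rest.

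Ndufaf4, which in human cells works with Ndufaf3 on the Q module (chr4:24898083-24905001, plus strand), had 12.2, 12.6, 11.7 and 11.8 FPKM in eWAT and 12.8, 10.7, 12.8 and 12.3 in iWAT. It had 15.5, 15.2, 18.6 and 18.5 FPKM in tAT and 44.3, 41.0, 36.8 and 38.9 in BAT. Thigh fat lay above both white depots and below brown fat in every library. The BAT mean was 3.33 times that of eWAT (difference 1.66 ± 0.09, adjusted p 1.1e-10, limma).

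Ndufaf3 moved differently from its partner. It had 42.2, 35.8, 34.9 and 35.3 FPKM in eWAT, 39.0, 34.4, 40.0 and 37.0 in iWAT, 29.5, 22.0, 42.3 and 29.1 in tAT, and 55.9, 49.7, 36.5 and 40.8 in BAT. All 4 depots overlapped, and the 2 muscle-rich BAT libraries were its lowest in brown fat. It was the only member with no call against eWAT (0.28 ± 0.16, adjusted p 0.13, limma) or iWAT (0.26 ± 0.16, adjusted p 0.16). Without the 5 muscle-rich libraries all 7 assembly factors, Ndufaf3 among them, were higher in BAT than in eWAT and iWAT.

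Ndufaf5, which in human cells hydroxylates an arginine of Ndufs7, had 8.55, 7.66, 6.60 and 9.07 FPKM in eWAT and 8.25, 9.02, 10.5 and 9.46 in iWAT. It had 14.3, 13.5, 12.8 and 12.5 FPKM in tAT and 22.6, 22.7, 21.7 and 22.2 in BAT. Here tAT 3 did not stand out, and thigh fat did not overlap white or brown fat. Ndufaf6, of early assembly, was at 8.42 ± 0.998 FPKM in eWAT and 21.3 ± 3.03 in BAT, 2.54 times. Ndufaf1, which in human cells binds Ecsit and Acad9 in the complex that builds the membrane arm, was at 18.1 ± 1.19 and 33.7 ± 1.16, 1.86 times. Ndufaf7, a methyltransferase of complex I assembly in human cells, was at 9.93 ± 0.554 and 15.0 ± 1.37, 1.51 times, and the late-acting Ndufaf2, a paralogue of Ndufa12, at 23.5 ± 1.93 and 31.1 ± 3.47, 1.33 times.

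**Figure D4:**
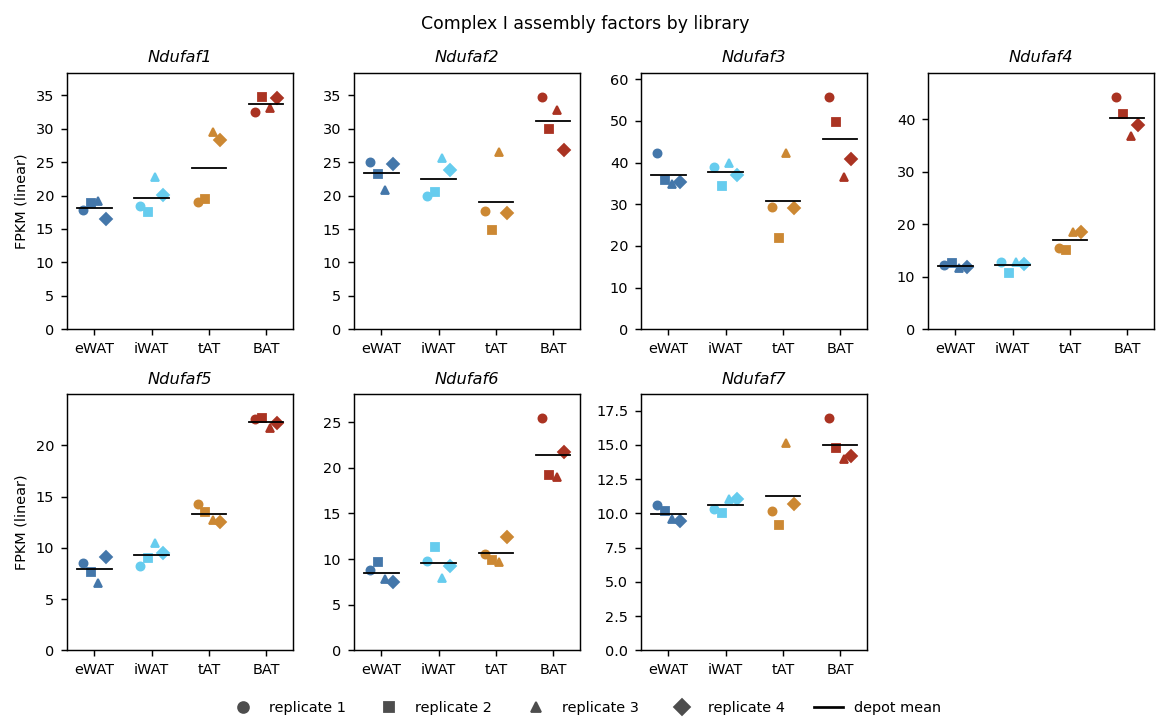
FPKM on linear axes that start at 0 for the 7 assembly factors in the 16 libraries; each symbol is a library and each bar a depot mean (n = 4). Ndufaf4 and Ndufaf5 separate thigh fat from both white depots and from brown fat, Ndufaf3 overlaps across all 4 depots, and the range of means runs from 7.97 FPKM for Ndufaf5 in eWAT to 45.7 for Ndufaf3 in BAT.

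In the deposited FPKM the 2 members outside the complex went opposite ways in brown fat. Ndufa4, a subunit of cytochrome c oxidase, was at 732 ± 71.4 FPKM in eWAT, 728 ± 76.3 in iWAT, 814 ± 228 in tAT and 2465 ± 201 in BAT. In each depot the mean of Ndufa4 was above that of every nuclear complex I subunit. Its paralogue Ndufa4l2, a hypoxia-induced gene, had 15.4, 21.3, 10.1 and 8.73 FPKM in eWAT and 15.4, 17.6, 10.7 and 12.1 in iWAT. It had 14.0, 13.3, 16.1 and 9.69 in tAT and 8.66, 8.47, 6.33 and 6.15 in BAT. BAT was lowest in every library, though eWAT 4 lay just above BAT 1. The difference from eWAT was -0.76 ± 0.23 (adjusted p 0.0080, limma), beside a median of -0.52 for all genes. Among all tested genes Ndufa4l2 was at the 38th percentile against eWAT, the 34th against iWAT and the 27th against tAT. The call against each depot was lost with median-of-ratios scaling, with quantile normalization and without the 5 muscle-rich libraries. The ratio of Ndufa4 to Ndufa4l2 FPKM was 276.8 to 420.0 in BAT and 34.1 to 85.2 in the other 12 libraries.

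Thigh fat exceeded inguinal fat for some members, among them most core subunits. Of the 45 members 11 were higher in tAT than in iWAT and none lower, where 10.5% of all genes were higher and 29.4% lower. They were 5 of the 7 core subunits (Ndufs1 and Ndufv1 among them), 4 of the 29 accessory subunits (Ndufa10, Ndufa12, Ndufb5 and Ndufc1) and the assembly factors Ndufaf4 and Ndufaf5. The largest was Ndufs1, whose tAT mean was 1.79 times the iWAT mean (0.83 ± 0.12, adjusted p 8.5e-05, limma). Ndufa10 followed at 1.58 times (0.62 ± 0.17, adjusted p 0.0087), then Ndufv1 at 1.53 times (0.58 ± 0.14, adjusted p 0.0038). The median difference was 0.51 for the core, 0.22 for the accessory subunits and 0.14 for the assembly factors, beside -0.11 for all genes. For 7 of the 36 subunits, 4 of them core, and 2 assembly factors every tAT library lay above every iWAT library, and no subunit or assembly factor lay below; of all genes 7.75% lay above and 25.9% below.

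Against epididymal fat, 15 members were higher in tAT and 3 lower, where 21.6% of all genes were higher and 36% lower. The 15 were 6 core subunits, 5 accessory subunits (Ndufa5, Ndufa9, Ndufa10, Ndufa12 and Ndufb5) and 4 assembly factors (Ndufaf1, Ndufaf4, Ndufaf5 and Ndufaf6), and 10 of them were also among the 11 above, a comparison with the same tAT libraries. Ndufs1 was again the largest at 2.33 times the eWAT mean (1.20 ± 0.12, adjusted p 7.5e-07, limma). The 3 lower members were Ndufa7 (0.772 times, adjusted p 0.023), Ndufa2 (0.776 times, adjusted p 0.028) and Ndufv3 (0.80 times, adjusted p 0.042). None of the 3 calls held without tAT 1, 2 or 4 or eWAT 1, each left out alone, with median-of-ratios scaling, with quantile normalization or with the 2 depots fitted alone. All 3 are accessory subunits of the N module, whose core subunits Ndufs1, Ndufv1 and Ndufv2 were higher in the same comparison. Every tAT library lay above every eWAT library for 9 subunits, 6 of them core, and 3 assembly factors, beside 14.1% of all genes, and below for none, beside 31.2%.

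The thigh libraries themselves differed for these genes. For 36 of 36 subunits tAT 3 was the highest thigh library, at 1.27 to 1.77 times the mean of the other 3. Its muscle transcripts summed to 292 FPKM, against 15256 or more in the rest. The summed FPKM of all genes was also highest in tAT 3, at 1074120 against 896524 to 958037. As a share of that sum the subunits were at 1.03% in tAT 3 and 0.737 to 0.831% in the rest. The share of all genes that were highest in tAT 3 was not counted. The median coefficient of variation of a subunit was 23.7% in tAT against 9.40% in eWAT, 7.67% in iWAT and 8.69% in BAT. Without tAT 3, 10 members were higher and 6 lower in tAT than in iWAT, beside 12.5% and 30.9% of all genes. Against eWAT 13 of the 45 were higher and 9 lower, beside 24.5% and 37.3% of all genes, so the higher share was near that of all genes. The median subunit differences were 0.07 and 0.02. The core subunits then still counted 4 of 7 higher than iWAT and 6 of 7 higher than eWAT with none lower, and Ndufs1 differed by 0.74 and 1.11.

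With tAT 3 as the single thigh library, after the 5 muscle-rich libraries were left out, 31 members were higher and none lower in each comparison. Of all genes, 5.4% were then higher and 12.9% lower than in iWAT, and 9.59% and 22.7% than in eWAT. The median subunit differences were then 0.70 against iWAT and 0.68 against eWAT, and the lone library is assumed to vary like the other groups. The 3 accessory subunits lower than eWAT were no longer so, at 0.10 for Ndufa2, 0.05 for Ndufa7 and 0.12 for Ndufv3. Without tAT 2, 18 members were higher in tAT than in iWAT and none lower, beside 9.35% and 26.5% of all genes. How far muscle RNA sets the thigh values was not tested.

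The white depots differed little. Ndufs1 alone passed between iWAT and eWAT, with 68.4 ± 5.62 against 52.8 ± 7.08 FPKM (1.30 times, 0.37 ± 0.12, adjusted p 0.043, limma), where 5.52% of all genes were higher and 8.48% lower. Its 4 libraries per depot did not overlap, but the call was lost on leaving out eWAT 1, 2 or 4, iWAT 1, 3 or 4, tAT 1 or 4, or BAT 2 or 3, each alone. The lowest difference was that of Ndufa8, a twin-cysteine-motif subunit of the membrane arm, at 104 ± 6.56 against 133 ± 16.4 FPKM (-0.34 ± 0.13, adjusted p 0.095). Every iWAT library lay above every eWAT library for 3 subunits and below for 1, beside 8.08% and 11% of all genes. The median difference was 0.09 for the core subunits, -0.10 for the accessory subunits and 0.09 for the assembly factors, with members of both signs in each class.

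Most of the 7 complex I subunits encoded by mitochondrial DNA were also highest in brown fat. In BAT 1 to 4 mt-Nd1 had 31437, 30849, 39317 and 32301 FPKM, against 4230 to 4727 in eWAT, 4146 to 5820 in iWAT and 7868 to 11729 in tAT. No depot overlapped another for mt-Nd1 except the 2 white depots. In each comparison with brown fat 5 of the 7 were higher in BAT, and mt-Nd4 and mt-Nd4l were listed at 0 in all 4 BAT libraries but at 1693 FPKM or more elsewhere. These zeros can be failed estimates, so no difference is given for them. All 7 were higher in tAT than in iWAT, with a median of 0.92, and than in eWAT, with a median of 1.13. All 7 also passed in both without tAT 3.

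Other genes of complex I assembly were in part higher in brown fat. Of 15 listed genes 12 were in the table, and 8 were higher and 2 lower in BAT than in eWAT, with a median of 0.78. Of all genes, 15.2% were higher and 59% lower. Aifm1, needed for import of complex I parts, was the highest, at 26.8 to 36.9 FPKM in eWAT and 87.3 to 112 in BAT (1.71 ± 0.18, adjusted p 2.7e-07, limma), followed by Ecsit at 1.55 ± 0.09. Acad9 (-0.10 ± 0.09, adjusted p 0.31), which works beside Ndufaf1 and Ecsit, did not pass, and Tmem126b (-0.35 ± 0.07) and Lyrm2 (-0.49 ± 0.07) were lower, both above the all-gene median of -0.52. With median-of-ratios scaling 11 of the 12 were higher and none lower. In thigh fat the 12 went both ways. There 2 were higher and 3 lower than in iWAT, beside 10.5% and 29.4% of all genes. Against eWAT 3 were higher and 4 lower in tAT, beside 21.6% and 36%.

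The nuclear genes of complexes II and III were higher in brown fat as well. All 13 were higher in BAT than in each other depot, with medians of 2.30, 2.14 and 1.81 beside 1.66, 1.70 and 1.43 for the complex I subunits, led against eWAT by Uqcrc2, a core protein of complex III, at 140 to 167 FPKM in eWAT and 1178 to 1301 in BAT (3.02 ± 0.16). In tAT 7 of 13 were higher than in iWAT and 9 than in eWAT, with none lower, and without tAT 3 the counts were 7 and 8, with 2 lower than eWAT. A list of 13 genes of mitochondrial import, porins, chaperones and citrate synthase had a median of 0.64 in BAT against eWAT. Of these 12 were higher and 1, Tomm20, lower, beside 15.2% and 59% of all genes. In tAT 5 of the 13 were higher and 2 lower than in iWAT, beside 10.5% and 29.4% of all genes. Against eWAT 6 were higher and 4 lower in tAT, beside 21.6% and 36%. Citrate synthase (Cs), a member of this list, was at 121 to 150 FPKM in eWAT and 786 to 879 in BAT (2.59 ± 0.11). The coactivator gene Ppargc1a, a regulator of mitochondrial genes, is listed with the brown adipocyte markers. It was at 0.393 to 0.901 FPKM in eWAT, 1.31 to 1.92 in iWAT, 3.51 to 5.79 in tAT and 7.96 to 12.0 in BAT. The summed brown adipocyte genes rose in the same order of depots, and a link of either to the subunit levels was not tested.

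Some of these levels are less certain than others. Ndufs3 has a processed pseudogene, Gm12251, that is 98.6% identical over 75.7% of its length and was listed at a mean of 19.9 FPKM against 254 for Ndufs3, so reads could be split between the 2. Ndufb11 has the copy Gm6444, listed at 0.148 FPKM. Ndufaf2 overlaps the non-coding B230220B15Rik over most of its transcript. In all, exons of 19 members overlap those of another gene, 17 of them on the opposite strand, among them Ndufs1. Strand handling in the counting is not given, so such values may hold reads of the neighbour.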

How the data were processed

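Expression was deposited as FPKM, a fragment count divided by gene length and library total, which the authors computed with TopHat, TopHat2 2.0.9 and Cufflinks 2.1.1 on mm10 per the submitters' processing notes. Per the labels' protocols RNA was extracted with Trizol and libraries were made with a TruSeq kit. Without counts the depth behind a value is unknown, and no interval for counting error is given. No pair of libraries held identical values.

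Values were analysed as log2(FPKM + 1), which understates differences of low genes. Genes that reached 1 FPKM in 4 or more of the 16 libraries (14991) entered a single limma 3.58.1 fit (R 4.3.3; depot means, eBayes with trend and robust), with 6 contrasts and Benjamini-Hochberg adjustment over all genes. The step was tested on simulated data. Alternatives were quantile normalization, median-of-ratios scaling, a pseudocount of 0.1, a minimum of 5 FPKM or none, 2 depots alone, the replicate number as a block, summing the rows of a symbol, and leaving out each library; leaving out the 5 muscle-rich libraries was added after seeing the data. Gene spans, lengths and overlaps came from GENCODE vM21 (GRCm38), promoters from RefSeq, and copies from blastn 2.17.0.

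The members, classes and gene lists were chosen with earlier results of these data known. Genes named are the core subunits, the assembly factors, 8 subunits of general interest (with Ndufa4 and Ndufa4l2), the 3 highest and 3 lowest accessory subunits of each contrast, members without a test, and the 2 highest and lowest of each list; examples outside this rule were chosen after their values were seen. Of the members, 1 is counted in the totals and classes but not reported here by name.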

Additional observations from a re-analysis of the deposited data

Results flagged for a closer look

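Of 148 groups of 4 libraries examined, 3 held a library whose gap to its nearest neighbour, as a share of the group's range, passed Dixon's 95% critical value, and chance gives about 1 in 20, or 7.4 groups. Ndufa13, the accessory subunit also known as GRIM-19, was at 126.3 FPKM in tAT 3, beside 86.1 to 92.6 in the other thigh libraries. Ndufaf3 was at 42.19 FPKM in eWAT 1, beside 34.9 to 35.8 in the other epididymal libraries. Ndufb3 was at 195.4 FPKM in iWAT 2, beside 182 to 184 in the other inguinal libraries.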

How the results depend on the processing

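Of 192 named differences, 135 kept their direction and call under all 25 settings. With median-of-ratios scaling the subunit and assembly medians were 2.32 and 1.502 (BAT against eWAT), 2.37 and 1.40 (BAT against iWAT) and 1.97 and 1.22 (BAT against tAT), no member was lower (0) in any of the 3, 18 were higher in tAT than in iWAT (16.3% of all genes) with an assembly median of 0.26, and 0 were lower in tAT than in eWAT or higher in iWAT than in eWAT. With quantile normalization the medians were 1.95 and 1.40, then 1.25 (assembly, iWAT) and 1.101 (assembly, tAT), with 0 lower in BAT. In tAT 31 members were then higher than in iWAT and 34 higher and 0 lower than in eWAT, beside 16.3% and 28.3% of all genes higher (10.5% and 21.6% in the report), with subunit medians of 0.47 and 0.52, and 2 were higher in iWAT than in eWAT. Ndufa13 (0.26) and Ndufv3 (0.020) then changed direction in tAT against eWAT. With 2 depots alone 0 members were lower in tAT than in eWAT and 0 higher in iWAT than in eWAT, as was the last with no filter. Without the 5 muscle-rich libraries 0 members were lower in BAT, subunit and assembly medians were 1.06 and 0.31 (BAT against tAT), 0.70 and 0.42 (tAT against iWAT) and 0.68 and 0.56 (tAT against eWAT), 31 were higher in each thigh comparison with 0 lower than eWAT, 1 was lower in iWAT than in eWAT, and Ndufa2 (0.10), Ndufa7 (0.048) and Ndufv3 (0.12) changed direction in tAT against eWAT. The causes were not tested. The shift of the median of all genes with median-of-ratios scaling stands in the report. A fit with 1 thigh library rests on the spread of the other groups.

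Leaving out 1 library at a time, the members higher in BAT numbered 42 to 43 against eWAT, 43 against iWAT and 44 against tAT, with 1 lower. Of all genes, 14 to 16.3%, 11.8 to 13.4% and 10.2 to 12.3% were then higher in BAT. The shares lower in BAT were 56.9 to 60.3%, 59.2 to 62.7% and 53.9 to 59.2%. In tAT 9 to 18 were higher and 0 to 6 lower than iWAT, and 12 to 16 higher and 0 to 9 lower than eWAT. In iWAT 0 to 1 were higher and 0 to 2 lower than eWAT. Of all genes, 7.96 to 12.5% were higher and 24.1 to 30.9% lower in tAT than in iWAT. Against eWAT the shares were 18.2 to 24.5% and 33 to 37.3% in tAT, and 2.41 to 9.88% and 4.59 to 11.1% in iWAT. The subunit median ran from 1.62 to 1.70, 1.65 to 1.74 and 1.32 to 1.58 in BAT, 0.07 to 0.33 and 0.017 to 0.30 in tAT and -0.14 to -0.02 in iWAT, and the assembly median from 0.82 to 0.89, 0.70 to 0.82, 0.59 to 0.74, 0.08 to 0.21, 0.24 to 0.37 and 0.04 to 0.11. The 3 members lower in tAT than in eWAT became 0 without tAT 1, 2 or 4 or eWAT 1, 1 without eWAT 4, 5 without eWAT 3 and 9 without tAT 3.

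The correlation of same-numbered deviations was over 0.1 in 4 of 24 pairs (-0.27 to 0.23), and 6 of 16 libraries lay closest to their own number. With 4 libraries per depot these values cannot decide whether equal numbers share a mouse, which the labels do not state. With the replicate block 14 members in place of 11 were higher in tAT than in iWAT, beside 10.7% of all genes. In tAT against eWAT 2 in place of 3 were then lower, beside 36.1% of all genes. Depth is unknown, so no limit from counting can be set.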
